A study of Rattus norvegicus with 36 samples.

Results

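The genes described here are the DNA repair and Fanconi anaemia genes of iAM-1 cells, which are atrial myocytes of newborn Wistar rats made to grow as a line by a switchable large T antigen. They were chosen by gene symbol alone, as all symbols of the deposited table that begin with Fanc, Brca1, Brca2, Brip1, Xrcc, Ercc or Rad and a digit, or that are Blm, Exo1, Lig1, Lig3, Lig4, Parp1, Parp2, Parp3 or one of the Msh genes of mismatch repair. The rule found 58 of the 12943 rat genes listed, and all 58 passed the filter on low values (at least 1 CPM in at least 4 libraries). Values and counts are given for 55 of them. CPM stands for reads per 1000000 as scaled by the authors. A few symbols matched by name belong to genes with another main role: Rad21 is a cohesin subunit, Ercc6l a translocase of mitotic chromosome threads, and Rad54l2 a helicase best known as a partner of the androgen receptor. Rad54l2 is nevertheless counted with homologous recombination below.

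RNA was sequenced at 9 days of 1 cycle, with 4 libraries a day. At D0 the cells had been proliferating in medium with 100 ng/ml doxycycline. D1, D2, D3 and D9 followed its removal (the differentiation phase), and D10, D11, D12 and D18 followed its return at 100 ng/ml (the dedifferentiation phase). The same cell line was used in all groups, and the RNA of its T antigen construct is a row of the table. Each sample of a day carries its own number and letter label. Whether the 4 libraries of a day stem from separate cultures is not stated beyond these labels. The p-values therefore reflect the spread among these libraries alone, and that spread may be technical.

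Cells meet DNA damage with several repair systems. The Fanconi anaemia core complex is a ubiquitin ligase that marks the pair Fancd2 and Fanci at crosslinked DNA, and homologous recombination, with Brca1 and Brca2, then copies the break from a sister chromatid and so works mostly in cells that replicate their DNA. Mismatch repair also follows the replication fork, whereas nucleotide excision repair, base excision repair and end joining work in dividing and resting cells alike. Heart muscle cells leave the cell cycle around birth, and iAM-1 cells leave and re-enter a proliferating state as doxycycline is removed and returned.

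The libraries held 14.9 to 43.1 M assigned reads each (M, 1e+06; median 18.5 M), and 1 read was worth 0.0211 to 0.0722 CPM. D12 replicate 1, D10 replicate 1 and D9 replicate 2 stood apart from the other libraries of their day over all genes (SD of the log2 difference from the day median 0.46, 0.42 and 0.27, against 0.29 to 0.33, 0.13 to 0.15 and 0.13 to 0.14 in the others). All D11 and D12 libraries were more spread than most, with 0.20 to 0.30 at D11. Large T antigen RNA lay at 2732 to 3098 CPM at D0, 27.6 to 33.9 at D9 and 4578 to 5474 at D18. All 8 atrial cardiomyocyte markers were listed, and their summed level was 12480 to 13640 CPM at D0, 85550 to 93640 at D9 and 19730 to 24310 at D18. The summed fibroblast markers lay at 374 to 405, 10.0 to 12.5 and 131 to 142 CPM at the same days, with 5 of the 7 genes listed (not Col1a2 and Dcn). Summed smooth muscle markers (4 of 4 listed) lay at 4793 to 4971, 9162 to 10880 and 3824 to 4646 CPM, and epicardial markers (3 of 3) at 205 to 218, 200 to 214 and 156 to 170 CPM. Endothelial markers (2 of 5, without Pecam1, Cdh5 and Tek) lay at 16.4 to 21.8, 249 to 287 and 186 to 208 CPM. The listed macrophage (2 of 4), skeletal muscle (2 of 4) and Schwann cell and neuron (2 of 4) markers summed to at most 6.39, 55.2 and 6.20 CPM in the libraries of these 3 days, and Cd68, Ptprc, Myod1, Myog, Sox10 and S100b were not in the table. The sums hide members that went otherwise. Upk3b of the epicardial list went from a mean of 54.4 CPM at D0 to 9.9 at D9. Smtn of the smooth muscle list went from 167.5 to 40.0 CPM. Col1a1 of the fibroblast list lay at 246, 5.0 and 4.25 CPM at D0, D9 and D18. The part of these marker levels in the repair gene values was not tested.

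Among the 55 genes the level per transcript length differed widely at D0, when the cells were in medium with doxycycline. In TPM (transcripts per 1000000, scaled by length) Rad23b and Rad21 were the most abundant at D0, at 292 and 285 TPM, and Msh5, a gene best known from meiosis, was the lowest at 1.12 TPM. All 55 genes were at 1 TPM or more at D0, 42 at D9, and 55 again at D18. The median gene was at 26.7 TPM at D0, 7.82 TPM at D9 and 31.8 TPM at D18. Fancd2 moved in this order from rank 8 at D0 to rank 44 at D9 and rank 4 at D18, while Rad21 and Rad23b were the 2 highest on all 3 days.

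**Figure D1:**
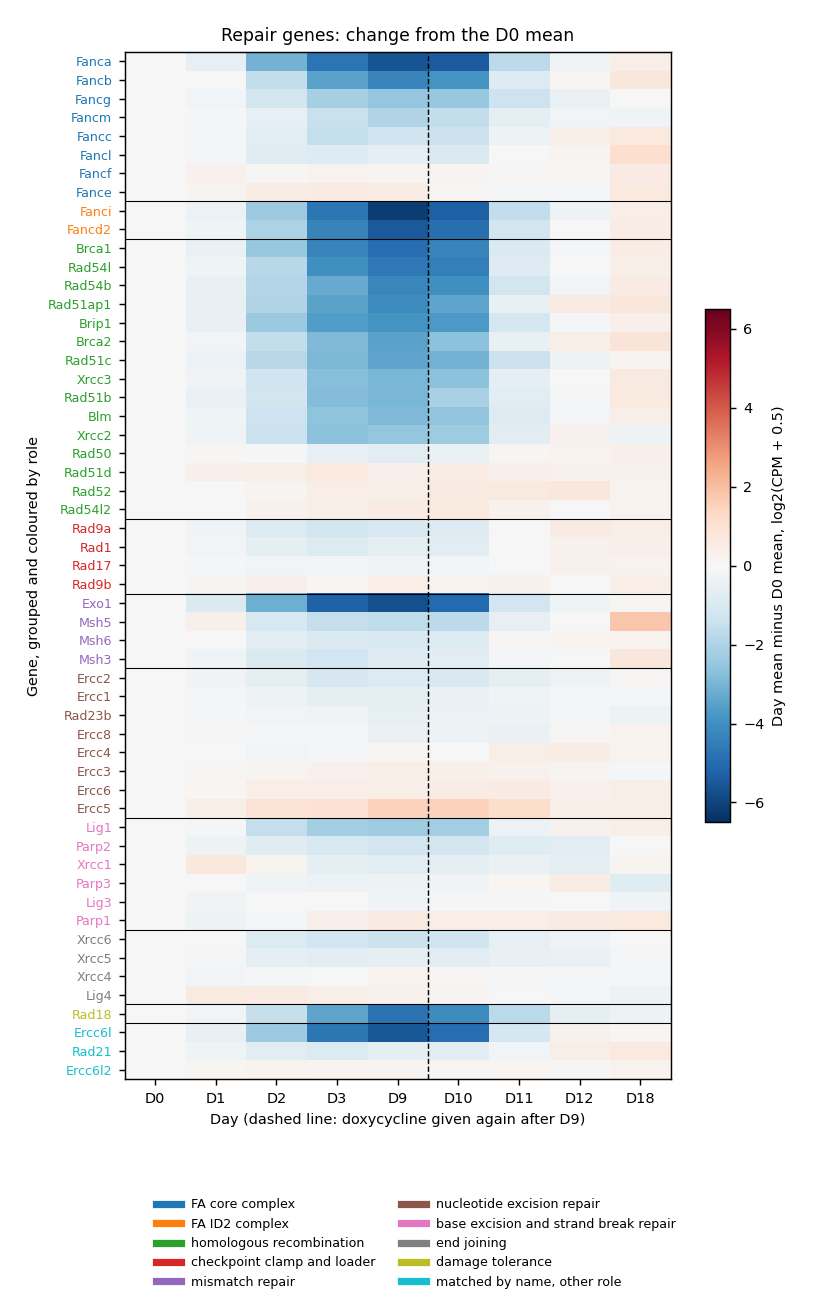
Difference of each day's mean from the D0 mean in log2(CPM + 0.5) for the 55 genes, grouped by role (rows) over the 9 sampled days (columns); blue is lower and red is higher than at D0. The darkest rows at D9 are Fanci, Exo1, Fanca, Ercc6l and Fancd2, and most blue rows are pale again at D12 and D18.

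After 9 days without doxycycline most of these RNAs were lower. Between D0 and D9, 40 of the 55 genes fell, 10 rose and 5 were not called (Fancf, Xrcc4, Ercc4, Ercc6l2 and Parp3). The test was limma on log2(CPM + 0.5) over all 36 libraries and all 12492 rows that passed the filter, with Benjamini-Hochberg adjustment and a threshold of 0.05. Over those rows 37% were called lower and 34.4% higher. At least 2-fold falls were called in 26 of the 55 genes, against 14.8% of all rows, and at least 2-fold rises in 1 of the 55, against 10.7%. The median log2 change was -0.90 for the 55 genes and -0.02 for all rows. In bulk RNA, fewer cells of a type and less RNA per cell cannot be told apart.

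The number of falls held under other scalings and the number of rises did not. With columns rescaled to sum to 1000000 there were 41 falls and 2 rises, and the TPM table also gave 41 and 2. Those scalings moved the median of all rows to -0.29 and -0.35. Quantile normalisation gave 39 falls and 14 rises, at a median of 0.08. Ercc5 and Parp1 were the rises called under each of these scalings. Without the 3 libraries that stood apart there were 40 falls and 10 rises.

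**Figure D2:**
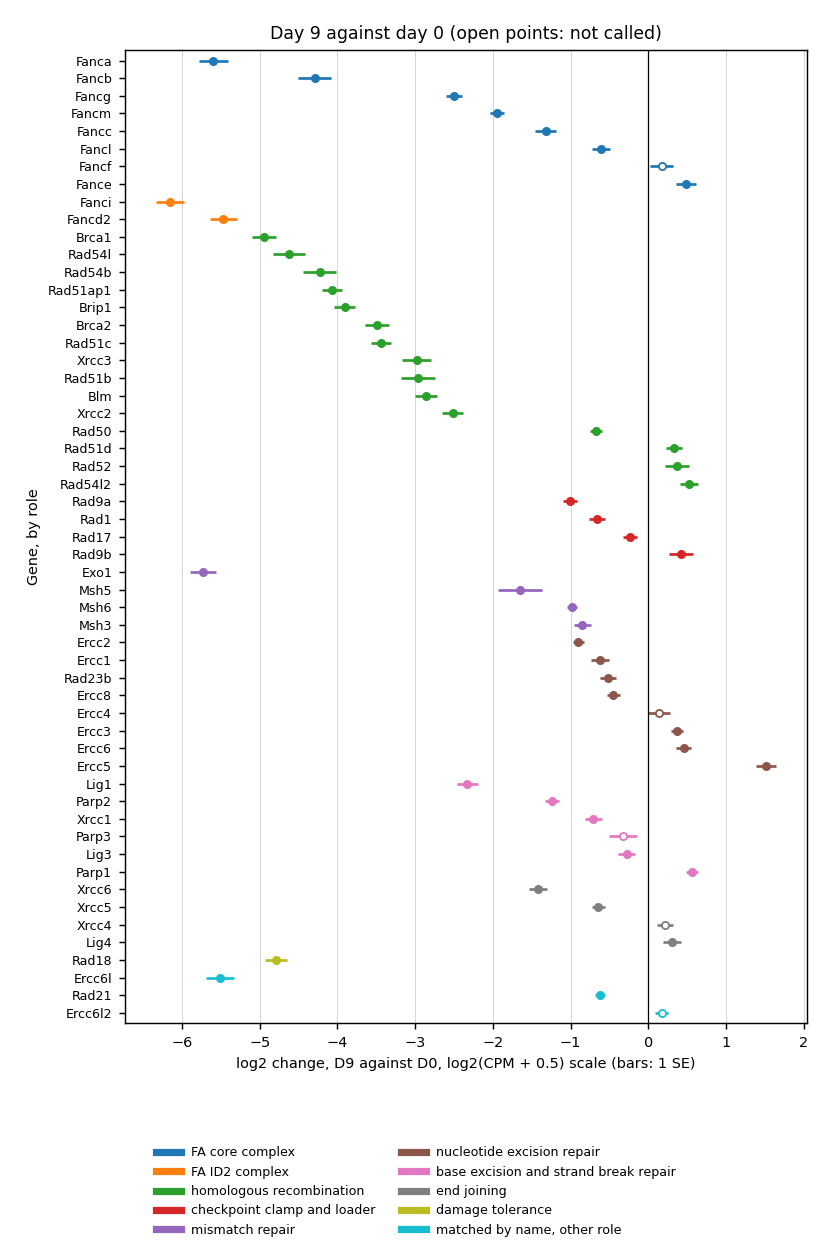
Log2 change of each gene from D0 to D9 on the log2(CPM + 0.5) scale, with bars of 1 SE from limma; filled points were called at an adjusted p under 0.05. Fanci, Exo1, Fanca, Ercc6l and Fancd2 lie furthest left, and Ercc5 lies furthest right at 1.52.

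The pair of proteins that the core complex marks was among the 5 genes with the largest falls, with Exo1, Fanca and Ercc6l. Fanci (FA complementation group I) measured 99.5, 96.7, 101 and 101 CPM in the 4 libraries at D0, 0.871, 1.05, 0.891 and 0.812 at D9 and 138, 129, 132 and 135 at D18. Its partner Fancd2 (ENSRNOG00000061085) measured 110, 112, 107 and 116 CPM at D0, 1.92, 1.91, 1.86 and 2.44 at D9 and 160, 148, 146 and 164 at D18. For each gene the D9 libraries lay far below those of D0 and D18 and every D18 library lay above every D0 library. Fanci fell (log2 -6.16, SE 0.18, adjusted p = 7.9e-25) and Fancd2 (log2 -5.47, SE 0.17, adjusted p = 4.3e-24), and by D18 Fanci rose again (log2 6.58, SE 0.18, adjusted p = 9.0e-26) and so did Fancd2 (log2 5.94, SE 0.17, adjusted p = 3.2e-25). The difference between D18 and D0 was called for Fancd2 (log2 0.47, SE 0.17, adjusted p = 0.0211) and missed the threshold for Fanci (log2 0.42, SE 0.18, adjusted p = 0.05). The Fanci difference was called with rescaled columns (adjusted p = 0.0328), in the TPM table (0.0404), with a pseudocount of 2 (0.0256), with edgeR (0.0227), in a fit of only these days (2.25e-06) and without the 3 libraries that stood apart (0.0291), and was not called in any fit without 1 library (0.0677 to 0.0918). Without D18 replicate 4 the Fancd2 call was lost (adjusted p = 0.0509).

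The core complex did not move as a unit. Of its 8 members in the table, 6 fell by D9 (Fanca, Fancb, Fancg, Fancm, Fancc and Fancl), Fance rose and Fancf was not called. Over all rows 37% were called lower and 34.4% higher. Fanca, the core member most often mutated in human patients, measured 27.3, 26.8, 27.9 and 26.7 CPM at D0, 0.105, 0.0361, 0.0810 and 0.0696 at D9 and 37.2, 36.0, 35.5 and 37.8 at D18. Its D9 values rest on 3 reads over all 4 libraries, against 3008 at D0, which per library total is a ratio of 746 with an exact 95% interval of 255 to 3619 that covers counting error only. Fancb fell (log2 -4.29, SE 0.21), as did Fancg (log2 -2.50, SE 0.11), Fancm, the DNA translocase that recruits the complex (log2 -1.95, SE 0.09), and Fancc (log2 -1.32, SE 0.14).

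Fancl, the catalytic ubiquitin ligase, fell least of the 6 and was the furthest above its D0 level at D18. It measured 14.8, 14.7, 14.2 and 14.5 CPM at D0, 9.65, 10.4, 9.75 and 7.77 at D9 and 32.8, 29.1, 32.0 and 34.9 at D18, so that the 3 days did not overlap and D18 was the highest. Fancl was lower at D9 than at D0 (log2 -0.61, SE 0.12, adjusted p = 2.2e-05) and higher at D18 than at D0 (log2 1.12, SE 0.12, adjusted p = 1.4e-09). Fance, the member that binds Fancd2, measured 15.7, 15.3, 18.4 and 15.2 CPM at D0 and 21.2, 28.4, 22.0 and 19.9 at D9, and every D9 library lay above every D0 library (log2 0.48, SE 0.13, adjusted p = 0.00134). With columns rescaled to 1000000 its change was 0.21 (adjusted p = 0.172), so that the direction of the rise held and its call did not. Fancf, the adaptor of the complex, measured 4.84, 3.95, 5.56 and 3.54 CPM at D0 and 5.54, 4.73, 5.70 and 4.29 at D9, and the groups overlapped (log2 0.17, SE 0.15, adjusted p = 0.31).

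Homologous recombination held the largest group, with 12 of 15 genes lower and 3 higher at D9 (37% and 34.4% of all rows). Its median log2 change was -2.98. The 3 higher genes include Rad54l2, which is in the group by its name. Brca1 (ENSRNOG00000020701) measured 109, 120, 113 and 112 CPM at D0, 2.75, 3.21, 3.38 and 3.5 at D9 and 163, 148, 144 and 179 at D18, and Brca2, best known with Brca1 from inherited breast and ovarian cancer, 55.1, 62.0, 49.4 and 57.6 CPM, 5.33, 3.86, 4.67 and 4.29 and 109.9, 95.6, 85.1 and 119. In each case D9 lay below all libraries of the other days and D18 above all of D0. Brca1 fell (log2 -4.95, SE 0.16, adjusted p = 8.5e-24) and Brca2 (log2 -3.49, SE 0.15, adjusted p = 4.1e-20). Brip1, a helicase bound by Brca1, fell (log2 -3.90, SE 0.13), as did Rad51ap1, which stimulates strand pairing (log2 -4.06, SE 0.13), and the motor proteins Rad54l (log2 -4.62, SE 0.21) and Rad54b (log2 -4.23, SE 0.21). The helicase Blm, which takes apart joined strands, fell as well (log2 -2.87, SE 0.14). Rad50, part of the complex that first binds a break, changed less, from 128, 139, 128 and 140 CPM at D0 to 82.9, 77.3, 87.5 and 88.0 at D9 (log2 -0.67, SE 0.08, adjusted p = 5.2e-09).

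Rad51b, Rad51c, Rad51d, Xrcc2 and Xrcc3, whose proteins form small complexes that assist recombination, divided into 4 that fell and 1 that rose (37% and 34.4% of all rows). Rad51b, Rad51c, Xrcc2 and Xrcc3 fell, with log2 changes of -2.97, -3.44, -2.52 and -2.98 (SE 0.22, 0.13, 0.14 and 0.18). Rad51b and Xrcc3 were left with 19 and 17 reads at D9 from 646 and 607 at D0, ratios of 25.3 (exact 95% interval 16.1 to 42.3) and 26.6 (16.5 to 45.9). Rad51d measured 12.6, 11.3, 8.72 and 10.2 CPM at D0, 13.8, 13.7, 14.1 and 12.5 at D9 and 13.4, 11.2, 14.8 and 13.1 at D18. The D0 and D9 libraries of Rad51d overlapped at the edge and the rise was small (log2 0.33, SE 0.10, adjusted p = 0.00516), and with columns rescaled to 1000000 the change was 0.06 (adjusted p = 0.611).

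Rad52 and Rad54l2 were the other rises of the group. Rad52, which anneals single strands and in mammals stands behind Brca2, measured 6.33, 6.86, 5.44 and 6.80 CPM at D0 and 8.81, 7.40, 8.18 and 8.93 at D9 (log2 0.37, SE 0.15, adjusted p = 0.032), without overlap. Its call was lost without D0 replicate 1 or 3 or D9 replicate 1 or 4 (adjusted p between 0.0522 and 0.105). Rad54l2 measured 14.8, 13.9, 14.1 and 12.2 CPM at D0 and 22.1, 20.3, 17.6 and 20.0 at D9 (log2 0.52, SE 0.11, adjusted p = 9.2e-05), and every D9 library was higher.

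Promoters of a few of these genes are shown. The members called at least 2-fold lower at D9 were set beside all other members, which include smaller falls. Both sets were searched for short sequence words that transcription factors are known to bind. The sequences are from RefSeq on the rat build GRCr8, each 5′ to 3′ in the direction of the gene, from 250 bases before the annotated start to 50 after it, and capitals mark an E2F-type word on either strand. Fancd2 (chr4:148234458-148234757, plus strand) and Lig1 (chr1:83242920-83243219, plus strand) fell over 2-fold by D9, Msh6 (chr6:12333456-12333755, minus strand) fell by less than 2-fold and Rad51d (chr10:68321853-68322152, minus strand) rose.
Fancd2: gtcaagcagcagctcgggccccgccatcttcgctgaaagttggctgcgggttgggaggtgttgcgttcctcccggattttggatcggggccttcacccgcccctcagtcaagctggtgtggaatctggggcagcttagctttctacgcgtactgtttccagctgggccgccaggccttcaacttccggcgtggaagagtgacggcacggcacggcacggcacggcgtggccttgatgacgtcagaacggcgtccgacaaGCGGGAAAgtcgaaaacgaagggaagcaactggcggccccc
Lig1: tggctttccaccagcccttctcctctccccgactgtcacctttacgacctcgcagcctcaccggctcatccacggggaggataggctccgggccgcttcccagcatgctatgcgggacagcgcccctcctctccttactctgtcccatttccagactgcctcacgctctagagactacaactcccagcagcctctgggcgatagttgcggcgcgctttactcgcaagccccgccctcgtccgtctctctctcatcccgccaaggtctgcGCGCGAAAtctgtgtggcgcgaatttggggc
Msh6: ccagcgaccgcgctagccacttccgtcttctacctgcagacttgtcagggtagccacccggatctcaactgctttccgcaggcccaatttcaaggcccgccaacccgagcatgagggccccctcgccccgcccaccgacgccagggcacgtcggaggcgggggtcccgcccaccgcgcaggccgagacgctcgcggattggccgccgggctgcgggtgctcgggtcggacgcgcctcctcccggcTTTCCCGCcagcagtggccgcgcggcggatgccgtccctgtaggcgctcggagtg
Rad51d: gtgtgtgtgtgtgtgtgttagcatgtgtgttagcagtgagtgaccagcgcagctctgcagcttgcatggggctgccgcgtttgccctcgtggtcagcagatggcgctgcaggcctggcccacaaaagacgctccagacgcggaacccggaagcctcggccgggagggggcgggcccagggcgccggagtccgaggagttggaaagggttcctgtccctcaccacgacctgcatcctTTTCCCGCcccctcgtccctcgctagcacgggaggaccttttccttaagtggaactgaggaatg
The words searched on both strands were TTTGGCGC, TTTCGCGC, TTTCCCGC and TTTGCCGC (E2F-type), TTTGAA and TTCGAA (the CHR element of late cell cycle genes), CCAAT, and an NRF1-type palindrome. A word found is a stretch of letters and not a bound site.

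Of the 55 genes, 49 had a promoter in the RefSeq table, and Blm, Msh5, Rad21, Rad54b, Rad54l2 and Xrcc2 had none. An E2F-type word stood in 3 of the 22 promoters of genes called at least 2-fold lower at D9 (13.6%: Fancc, Fancd2 and Lig1) and in 3 of the 27 others (11.1%: Fancl, Msh6 and Rad51d). Of these others Fancl and Msh6 were also called lower at D9, by less than 2-fold. Over the protein-coding genes of the CPM table an E2F-type word stood in 376 of 9147 promoters (4.11%), and over all protein-coding promoters in 2.82%. CCAAT stood in 54.5% of the promoters of the genes with 2-fold falls, 40.7% of the other members and 38% of the genes in the table. The CHR words stood in 18.2%, 11.1% and 13.4%, and the NRF1-type word in no member's promoter and in 2.02% of the table's. With 22 and 27 promoters, 1 promoter moves a share by several percent, and no test was run on these shares. The word in Fancd2 begins 10 bases after the annotated start, that in Lig1 20 bases after it, and those in Msh6 and Rad51d 5 and 14 bases before it.

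In mismatch repair all 4 genes described here fell by D9 (37% of all rows). Exo1, the exonuclease that removes the mismatched strand, measured 31.0, 30.7, 31.1 and 29.2 CPM at D0, 0.105, 0.0361, 0.135 and 0.0696 at D9 and 33.8, 32.0, 30.2 and 34.7 at D18. D9 was far below both other days, while D18 and D0 overlapped. Exo1 fell (log2 -5.73, SE 0.16, adjusted p = 3.8e-25) and rose (log2 5.82, SE 0.16, adjusted p = 1.7e-25), and the difference between D18 and D0 was not called (log2 0.10, SE 0.16, adjusted p = 0.641). In reads 3392 at D0 stood against 4 at D9, per library total a ratio of 631 (exact 95% interval 246 to 2316).

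The mismatch sensors Msh6 and Msh3, which recognise small mismatches and longer loops, fell less than Exo1. Their log2 changes were -0.98 and -0.85 (SE 0.07 and 0.11). Msh5 is counted in this group by its name. In reads of Msh5 153 at D0 stood against 4 at D9, per library total a ratio of 28.45 (exact 95% interval 10.89 to 105.8). Msh5, best known from meiotic crossing over, was low throughout, at 1.09, 1.53, 1.43 and 1.40 CPM at D0, 0.244, 0.0361, 0.0810 and 0.0232 at D9 and 7.28, 5.45, 6.08 and 5.65 at D18. All 4 D18 libraries of Msh5 lay above all of D0, and the difference (log2 1.83, SE 0.28, adjusted p = 2.6e-06) was the highest of the 55 genes between these days.

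The checkpoint clamp and its loader changed less. Rad9a and Rad1, subunits of the clamp that slides onto damaged DNA, fell, with log2 changes of -1.01 and -0.66 (SE 0.09 and 0.10), and the loader subunit Rad17 went from 32.7, 34.2, 33.7 and 34.1 CPM to 28.6, 31.8, 27.2 and 26.7 (log2 -0.24, SE 0.09, adjusted p = 0.0184). The Rad17 call was lost without D9 replicate 3 or 4 (adjusted p = 0.0507 and 0.0591). Rad9b, a paralog of Rad9a, was low, at 1.64, 1.67, 1.37 and 2.16 CPM at D0 and 1.92, 2.56, 2.19 and 3.22 at D9 (log2 0.42, SE 0.16, adjusted p = 0.0185), the groups overlapped, and the call was lost without D0 replicate 3 or D9 replicate 4 (adjusted p between 0.0724 and 0.0994). Rad18, the ubiquitin ligase that marks the sliding clamp PCNA for damage bypass, fell further than these, from 58.7, 67.0, 56.8 and 64.7 CPM to 1.85, 1.84, 1.92 and 1.41 (log2 -4.79, SE 0.14, adjusted p = 4.2e-25).

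Nucleotide excision repair, which cuts out bulky lesions such as those left by ultraviolet light, divided: 4 of 8 genes fell, 3 rose and Ercc4 was not called, with a median log2 change of -0.15, not far from the shares of all rows (37% lower and 34.4% higher). Ercc5 (ENSRNOG00000022812), the endonuclease also known as XPG, measured 13.9, 14.6, 12.1 and 14.5 CPM at D0, 41.5, 43.0, 35.9 and 40.8 at D9 and 19.1, 16.7, 18.4 and 18.2 at D18. All D9 libraries lay above those of D0 and D18, and all D18 libraries lay above all of D0. Ercc5 rose between D0 and D9 (log2 1.52, SE 0.13, adjusted p = 2.1e-12), the only rise of over 2-fold among the 55 genes, and fell between D9 and D18 (log2 -1.13, SE 0.13, adjusted p = 2.2e-09). Rescaling columns to 1000000 left its rise at 1.24 (adjusted p = 2e-10).

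The helicases of the opening complex TFIIH went apart. Ercc2 went from 43.4, 40.5, 41.2 and 43.8 CPM at D0 to 24.1, 24.2, 19.8 and 21.8 at D9 (log2 -0.90, SE 0.07, adjusted p = 1.3e-13) and Ercc3 from 59.6, 60.4, 62.6 and 56.7 to 79.9, 81.1, 76.3 and 72.0 (log2 0.37, SE 0.07, adjusted p = 5.3e-05), each without overlap. The rise of Ercc3 was 0.09 (adjusted p = 0.312) with columns rescaled to 1000000. Ercc6 (CSB), which clears RNA polymerase stalled at damage, rose (log2 0.45, SE 0.10), and its partner Ercc8 (CSA) fell (log2 -0.45, SE 0.08). The rise of Ercc6 was 0.18 (adjusted p = 0.124) with rescaled columns. Rad23b, which stabilises the damage sensor and shuttles proteins to the proteasome, went from 341, 347, 328 and 330 CPM to 252, 185, 246 and 264 (log2 -0.52, SE 0.10, adjusted p = 2.9e-05). Ercc1, the partner of the nuclease Ercc4, fell (log2 -0.62, SE 0.11), while Ercc4 itself measured 7.56, 9.17, 8.41 and 7.85 CPM at D0 and 6.86, 12.2, 9.21 and 8.88 at D9 (log2 0.14, SE 0.14, adjusted p = 0.39).

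Among the genes of base excision and single-strand break repair, 4 of 6 fell, Parp1 rose and Parp3 was not called (37% of all rows lower and 34.4% higher). Lig1, the ligase that joins Okazaki fragments, went from 49.8, 51.4, 44.9 and 50.6 CPM at D0 to 8.95, 8.41, 10.2 and 10.1 at D9 and 63.9, 66.4, 66.8 and 55.7 at D18. The 3 days were separate, with D9 lowest (log2 -2.33, SE 0.13, adjusted p = 6.8e-17). Lig3, the ligase that works with Xrcc1 and in mitochondria, fell slightly, from 65.8, 67.2, 70.0 and 67.2 CPM to 55.6, 55.4, 54.4 and 57.1 (log2 -0.28, SE 0.11, adjusted p = 0.0271), and its call was lost without D0 replicate 3 or D9 replicate 3 (adjusted p between 0.0535 and 0.0595).

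The poly(ADP-ribose) polymerases took 3 courses. Parp1, the main sensor of strand breaks, measured 86.2, 84.6, 88.0 and 85.6 CPM at D0, 121, 149, 122 and 121 at D9 and 130, 143, 135 and 127 at D18, with D0 below both later days and a rise called at D9 (log2 0.57, SE 0.08, adjusted p = 8.4e-08). Parp2, its closest relative, went from 48.1, 48.2, 47.0 and 46.9 CPM to 20.1, 18.6, 21.1 and 19.8 at D9 (log2 -1.24, SE 0.09, adjusted p = 5.6e-14) and 43.3, 45.4, 44.6 and 53.2 at D18. Parp3, known from double-strand breaks, measured 55.9, 56.9, 52.6 and 52.9 CPM at D0, 50.6, 34.2, 44.4 and 46.6 at D9 and 28.9, 34.0, 31.9 and 29.7 at D18. Its fall by D9 was called with rescaled columns (log2 -0.60, adjusted p = 0.00269), in the TPM table (log2 -0.65, adjusted p = 0.0012) and in a fit of only these days (log2 -0.32, adjusted p = 0.0101). Its D18 libraries were the lowest, and Parp3 fell between D0 and D18 (log2 -0.80, SE 0.18, adjusted p = 3.4e-04), the largest such fall of the 55 genes.

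End joining, which reseals double-strand breaks without a template, also divided. The Ku subunits Xrcc6 and Xrcc5, which cap the broken ends, fell, with log2 changes of -1.42 and -0.64 (SE 0.11 and 0.08). Lig4, the ligase of this pathway, measured 18.8, 20.9, 21.2 and 24.5 CPM at D0, 26.2, 27.5, 26.1 and 25.5 at D9 and 17.1, 17.3, 14.9 and 17.7 at D18. Its D9 libraries lay above the others and its D18 libraries below (at D9 log2 0.30, SE 0.12, adjusted p = 0.0226). The D9 call for Lig4 was lost without D0 replicate 1 or D9 replicate 2 (adjusted p between 0.0515 and 0.0857), and in the TPM table the change was -0.03. Xrcc4, the partner of Lig4, measured 10.8, 10.7, 11.3 and 10.2 CPM at D0 and 11.9, 13.2, 12.5 and 12.7 at D9, higher in every D9 library but not called (log2 0.22, SE 0.11, adjusted p = 0.0665).

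Of the genes that the symbols brought in with another role, Ercc6l fell (log2 -5.51, SE 0.18, adjusted p = 1.1e-23) and Rad21 (log2 -0.62, SE 0.07, adjusted p = 4.4e-10). Rad21 measured 404, 434, 422 and 431 CPM at D0, 270, 273, 279 and 274 at D9 and 648, 624, 632 and 753 at D18, with no overlap between the days. Ercc6l2, a helicase of end joining, was listed with these genes and not counted under end joining. It measured 28.9, 28.1, 27.6 and 32.0 CPM at D0 and 30.5, 32.6, 33.7 and 34.8 at D9 (log2 0.17, SE 0.09, adjusted p = 0.0738).

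The sampled days between D0 and D9 show when the change came. At D1, 8 of the 55 genes were lower and 4 higher than at D0 (4.39% and 7.91% of all rows), with Exo1 lowest (log2 -0.92, SE 0.16, adjusted p = 1.9e-04). From D1 to D2, 36 genes fell and 4 rose (20% and 21.6% of all rows). From D2 to D3, 28 fell and 1 rose (9.72% and 2.92%), and from D3 to D9, 20 fell and 5 rose (25% and 18.4%). In the same libraries large T antigen RNA ranged from 645 to 734 CPM at D1, from 315 to 355 at D2 and from 33.1 to 37.8 at D3. At D1 it was thus far below its D0 range while Fancd2 was at 92.1 ± 3.25 CPM (SD, n = 4), from 111 ± 3.77 at D0, and reached 26.2 ± 1.03 at D2 and 5.06 ± 0.697 at D3.

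**Figure D3:**
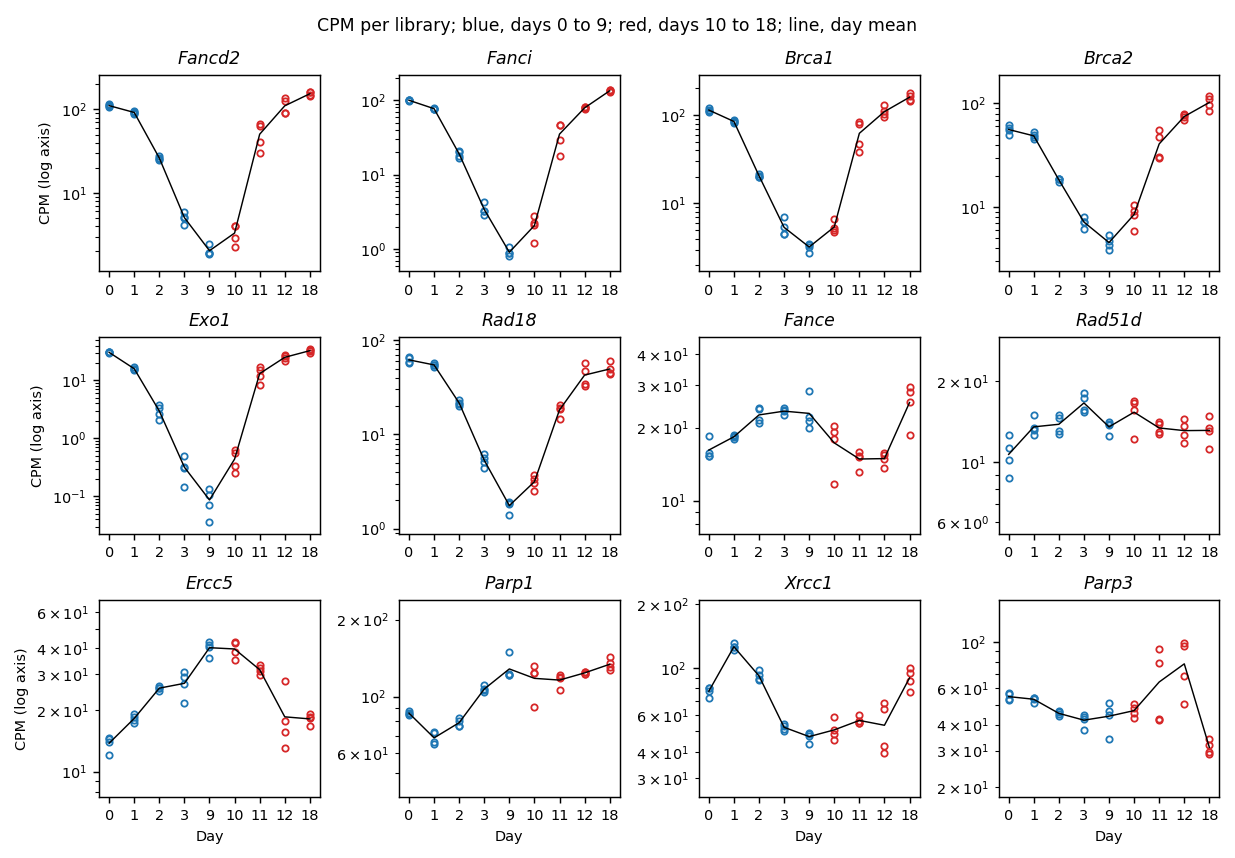
CPM in each library (points, log axis) and day means (lines) of 12 genes over the 9 sampled days, which are drawn at equal spacing; blue points are days 0 to 9 and red points days 10 to 18. Fancd2, Fanci, Brca1, Brca2, Exo1 and Rad18 form deep troughs at D9, Ercc5 peaks at D9 and D10, and Xrcc1 peaks at D1.

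A few members moved ahead of the others or against them at D1. Xrcc1, the scaffold of single-strand break repair, measured 80.7, 80, 77.7 and 71.9 CPM at D0, 125, 122, 126 and 131 at D1 and 50.3, 53.2, 54.3 and 51.4 at D3. All D1 libraries were above all D0 libraries (log2 0.70, SE 0.11, adjusted p = 3.5e-05), and by D9 Xrcc1 was lower than at D0 (log2 -0.71, SE 0.11, adjusted p = 8.2e-07). Lig4 was higher at D1 as well (log2 0.60, SE 0.12, adjusted p = 5.8e-04), as were Ercc5 (log2 0.39, SE 0.13, adjusted p = 0.0393) and Rad51d (log2 0.33, SE 0.10, adjusted p = 0.032). Parp1 went the other way first, lower at D1 (log2 -0.32, SE 0.08, adjusted p = 0.00496) and then higher from D2 to D3 (log2 0.43, SE 0.08, adjusted p = 8.2e-05). Without D0 replicate 4, 7 of the 55 genes were called at D1 in place of 12, and a fit of only D0 and D1 called 31, where it called 42.2% of all rows in either direction in place of 12.3%.

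After doxycycline returned, most of the RNAs that had fallen were higher within 3 days. At D10, 1 day after its return, 8 of the 55 genes were higher and none was lower than at D9 (2.4% and 1.26% of all rows): Rad51b, Fanci, Brca2, Rad18, Brca1, Exo1, Rad51ap1 and Fancm. At D10 Brca2 stood at 5.83, 10.5, 9.17 and 8.34 CPM, from 5.33, 3.86, 4.67 and 4.29 at D9 (log2 0.81, SE 0.15, adjusted p = 0.00111), and D10 replicate 1 lay nearest to D9. That library, which stood apart, was also the lowest of D10 for Fanci, Brca1, Rad18 and Exo1. It was the highest for Rad51ap1, for Fancm (26.2 CPM, others 17.6 to 18.2) and for Rad51b (1.65 CPM, others 0.688 to 0.939). A fit of D9 and D10 alone called 0 of the 55 genes, where it called 0.953% of all rows in place of 3.67%. In that fit 13 of the 55 genes and 1777 of the 12492 rows had an unadjusted p under 0.05. With edgeR on recovered reads 8 of the 55 genes were called. Without the 3 libraries that stood apart 7 were called. Large T antigen RNA ranged from 337 to 490 CPM at D10, from 1705 to 2420 at D11 and from 1637 to 3830 at D12.

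Most rises came between D10 and D11, when 35 genes rose and 1 fell (15.7% and 9.84% of all rows). Ercc6l rose most (log2 3.86, SE 0.18, adjusted p = 1.1e-18), from 0.976, 0.915, 1.71 and 0.987 CPM at D10 to 13.5, 32.0, 17.9 and 36.1 at D11, and Exo1, Fanci, Fanca and Fancd2 rose by log2 3.83, 3.73, 3.72 and 3.70. The D11 libraries divided into replicates 1 and 3 and replicates 2 and 4. Replicates 2 and 4 were both above 1 and 3 in 31 of the 55 genes and both below in 13, against 29.7% and 30.8% of all rows. Fancd2 measured 29.9, 66.9, 41.3 and 64.1 CPM and was among the 31. The part of this division in the D11 changes was not tested. From D11 to D12, 29 genes rose and 1 fell (18.7% and 21.3% of all rows), and the fall was that of Ercc5 (log2 -0.80, SE 0.13, adjusted p = 7.7e-06). From D12 to D18, 26 rose and 5 fell (25.5% and 23.5%), with Msh5 (log2 1.87, SE 0.28, adjusted p = 2.6e-06) and Fancl (log2 0.92, SE 0.12, adjusted p = 1.2e-07) the highest rises and Parp3 (log2 -1.27, SE 0.18, adjusted p = 7.1e-07) the lowest fall.

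Parp3 was among the 13 genes that were lower in D11 replicates 2 and 4, as were Lig3, Rad52 and Ercc1. It measured 79.2, 42.6, 92.9 and 41.9 CPM at D11 and 50.3, 68.2, 95.9 and 99.2 at D12, so that the libraries of these days spanned a wider range than at D0 or D18. The last Parp3 values, 28.9, 34.0, 31.9 and 29.7 at D18, lay below every library of D11 and D12.

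**Figure D4:**
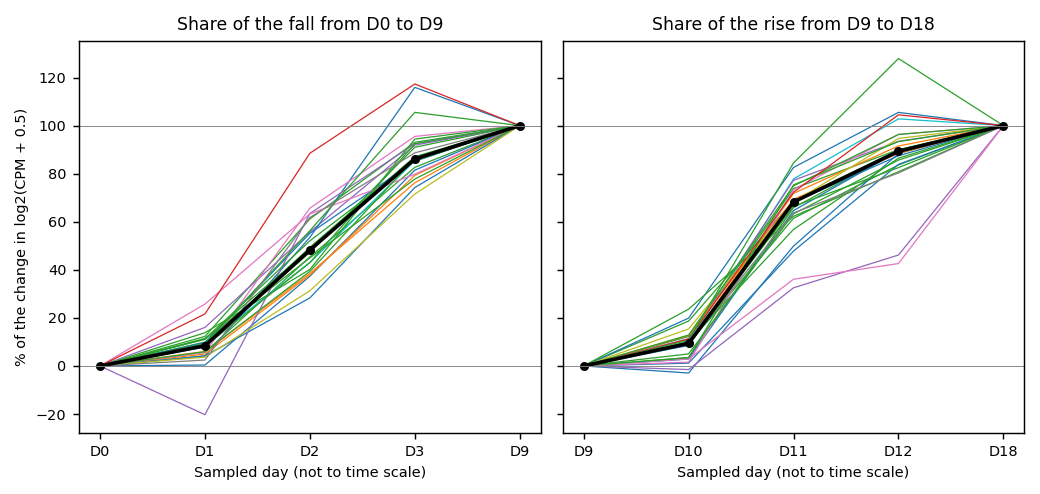
Share of the change in log2(CPM + 0.5) reached at each sampled day, for the 26 genes that fell at least 2-fold to D9 and rose at least 2-fold to D18, as thin lines coloured by role with the median as a black line. The median reaches 86.1% of the fall at D3 and 89.3% of the rise at D12.

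The pace can be given for the 26 genes with at least 2-fold changes in both phases, a description of genes chosen for those changes and with no test. Their median share of the fall was 8.39% at D1, 48.2% at D2 and 86.1% at D3. Their median share of the rise was 9.39% at D10, 68.2% at D11 and 89.3% at D12. Among them the share at D3 ran from 71.5% for Rad18 to 117% for Rad9a, and the share at D12 from 42.6% for Parp2 to 128% for Xrcc2. Msh5 was the exception at D1, where it stood above D0 (-20.3% of its fall).

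The sum of the change over the first 3 days without doxycycline and the change over the first 3 days with it is 0 where the latter undoes the former. This sum was above 0 for 13 of the 55 genes and below 0 for 4 (14.4% and 9.02% of all rows). Fanci (log2 1.13, SE 0.26, adjusted p = 0.00149), Rad51ap1 (log2 1.13, SE 0.18, adjusted p = 2.7e-05) and Ercc6l (log2 1.11, SE 0.25, adjusted p = 0.0015) were highest, while Ercc2 (log2 -0.56, SE 0.10, adjusted p = 5.3e-05), Xrcc5 (log2 -0.51, SE 0.12, adjusted p = 0.00185), Parp2 (log2 -0.47, SE 0.13, adjusted p = 0.00668) and Xrcc1 (log2 -0.43, SE 0.16, adjusted p = 0.0437) lay below 0. For Fanci, Rad51ap1 and Ercc6l the rise from D9 to D12 was thus larger than the fall from D0 to D3. The 6 further days to D9 had lowered Fanci again (log2 -1.47, SE 0.18, adjusted p = 6.7e-08). At D12 the mean of Fanci was 78.7 CPM, below its 99.55 at D0.

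Over the whole second phase, from D9 to D18, 39 of the 55 genes rose, 6 fell and 10 were not called (33.6% and 32.5% of all rows higher and lower). At least 2-fold rises were called in 31, against 12.1% of all rows, and the median log2 change was 1.27, against 0.00 for all rows. All genes of the mismatch repair group rose (4 of 4), as did 7 of 8 core complex genes and 12 of 15 homologous recombination genes. This comparison shares its D9 libraries with that of D9 against D0, so the turn in direction is no independent result. The falls were Ercc5 (-1.13), Lig4 (-0.64), Ercc3 (-0.50), Parp3 (-0.48), Xrcc4 (-0.33) and Rad54l2 (-0.29). With columns rescaled to 1000000 there were 47 rises and 3 falls (Ercc5, Lig4 and Ercc3), 47 and 2 with the TPM values, and with quantile normalisation 39 and 10. Without the 3 libraries that stood apart there were 40 rises and 6 falls. The Parp3 call was lost without D9 replicate 1 (adjusted p = 0.0651), with rescaled columns (0.428) and in the TPM table (0.53), and that of Rad54l2 without D9 replicate 1 or D18 replicate 4 (adjusted p between 0.0787 and 0.139).

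At the end of the cycle most levels stood at or above their start. Between D0 and D18, 30 of the 55 genes were higher, 6 lower and 19 not called (28.8% and 23.2% of all rows higher and lower), with a median log2 difference of 0.33, against 0.06 for all rows. Most differences were small: 2 genes were at least 2-fold higher (3.69% of all rows), Msh5 (1.83) and Fancl (1.12), and none was called at least 2-fold lower (5.34% of all rows). Next were Brca2 (log2 0.86, SE 0.15, adjusted p = 1.8e-05), Fancb (log2 0.76, SE 0.21, adjusted p = 0.00326), Rad51ap1 (log2 0.73, SE 0.13, adjusted p = 2.1e-05) and Msh3 (log2 0.72, SE 0.11, adjusted p = 1.9e-06), each without overlap between the days. Parp1 was higher (log2 0.63, SE 0.08) and so was Rad21 (log2 0.65, SE 0.07).

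The 6 lower genes at D18 were Parp3, Rad23b, Lig4, Xrcc2, Rad18 and Fancm. Rad23b measured 341, 347, 328 and 330 CPM at D0 and 243, 266, 278 and 269 at D18, with every D18 library lower (log2 -0.35, SE 0.10, adjusted p = 0.00404). Fancm also stood lower in every D18 library (log2 -0.29, SE 0.09, adjusted p = 0.00611), whereas the other core members were higher or not called. The calls of Rad18 (log2 -0.33, SE 0.14, adjusted p = 0.0458) and Xrcc2 (log2 -0.34, SE 0.14, adjusted p = 0.0364) were each lost in 6 of 8 cases where 1 library was left out (D0 replicates 1, 2 and 4 and D18 replicates 1, 2 and 3 for Rad18, adjusted p 0.0551 to 0.131; D0 replicates 1, 3 and 4 and D18 replicates 2, 3 and 4 for Xrcc2, adjusted p 0.065 to 0.0832). The call of Lig4 (log2 -0.34, SE 0.12, adjusted p = 0.0161) was lost without D0 replicate 4 or D18 replicate 3 (adjusted p 0.0731 and 0.0627). Without D0 replicate 4 or without D18 replicate 3 the number of lower genes was 3.

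Several calls of higher genes at D18 were also lost when 1 library was left out. Brip1 (log2 0.33, SE 0.13, adjusted p = 0.0418) lost its call without D0 replicate 1, 2 or 3 or D18 replicate 1 or 4 (adjusted p 0.0615 to 0.15). Rad51d lost it without D0 replicate 3 or 4 or D18 replicate 3 (0.0521 to 0.127), Rad9b without D0 replicate 1 or 3 or D18 replicate 1 or 3 (0.0523 to 0.0959), and Ercc6l2 without D0 replicate 2 or 3 or D18 replicate 1 or 4 (0.0546 to 0.101). Lig1 lost it without D0 replicate 3 or D18 replicate 2 or 3 (0.0562 to 0.0702), Blm without D0 replicate 1 or D18 replicate 4 (0.0575 to 0.0611), Rad17 without D18 replicate 4 (0.0812) and Ercc5 without D0 replicate 3 (0.0507).

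**Figure D5:**
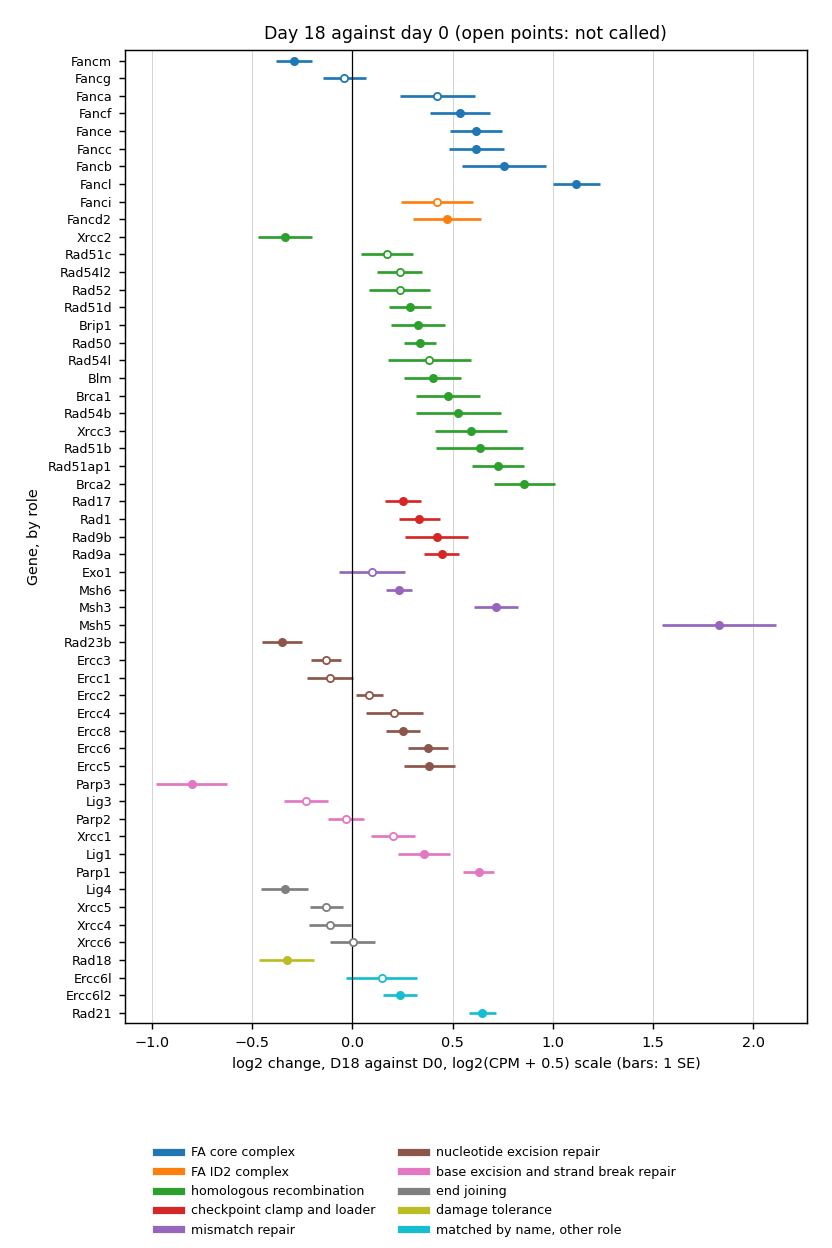
Log2 difference of each gene between D18 and D0 on the log2(CPM + 0.5) scale, with bars of 1 SE from limma; filled points were called at an adjusted p under 0.05. Most points lie between 0 and 0.8, Msh5 and Fancl lie furthest right at 1.83 and 1.12, and Parp3 lies furthest left at -0.80.

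Genes of the same pathways that the symbol rule did not take were read from lists. Of 10 other Fanconi anaemia genes 5 fell and 3 rose by D9, not far from the shares of all rows (37% lower and 34.4% higher). Uhrf1, a reader of crosslinks and of hemimethylated DNA, fell (log2 -7.34, SE 0.19), Ube2t, the conjugating enzyme that serves Fancl, (log2 -5.54, SE 0.18), Palb2, the link between Brca1 and Brca2, (log2 -3.02, SE 0.13), and Usp1, which removes the ubiquitin from Fancd2, (log2 -2.84, SE 0.11). Fan1, a nuclease recruited to the marked pair, rose (log2 1.13, SE 0.11). Of 33 other homologous recombination genes 21 fell and 8 rose: the polymerase Polq, which serves an alternative end joining, fell (log2 -5.51, SE 0.17), and of the enzymes that cut joined molecules Gen1 fell (log2 -4.75, SE 0.17) and Eme1 (log2 -4.75, SE 0.19), whereas Mus81, the partner of Eme1, rose (log2 0.78, SE 0.14).

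Of 16 checkpoint kinases and mediators 12 fell and 3 rose by D9 (37% of all rows lower and 34.4% higher). Clspn, the adaptor of the replication checkpoint kinase, fell (log2 -6.12, SE 0.17), and Hus1, the clamp subunit that joins Rad9a and Rad1, rose (log2 0.86, SE 0.10). Of 4 other mismatch repair genes 2 fell and 1 rose, not far from the shares of all rows, with Pms2 lowest (log2 -0.65, SE 0.07). Translesion synthesis held 7 falls and 3 rises of 11, with the primase-polymerase Primpol lower (log2 -2.91, SE 0.22) and Rev3l, the catalytic subunit of polymerase zeta, higher (log2 0.76, SE 0.11).

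Of 15 other nucleotide excision repair genes 5 fell and 6 rose, shares near those of all rows (37% lower and 34.4% higher). Xpa, which verifies the damage, rose (log2 1.27, SE 0.18) from a mean of 1.89 CPM at D0 to 5.12 at D9. Of 24 other base excision and strand break repair genes 13 fell and 3 rose: the glycosylase Neil3 fell (log2 -4.03, SE 0.16), and the direct reversal enzymes Mgmt and Alkbh3 rose (log2 1.80, SE 0.16 and log2 1.14, SE 0.12). Of 5 other end joining genes 1 fell and 2 rose, also not far from the shares of all rows. Polm, a polymerase that fills gaps at the ends, rose (log2 2.24, SE 0.23).

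For comparison, all 22 genes of a replication list fell by D9, with a median log2 change of -3.59, and all 16 of a mitosis list, with a median of -6.36. Over all rows 37% were called lower. The median of the homologous recombination group (-2.98) lay nearest that of the replication list, and those of nucleotide excision repair (-0.15), end joining (-0.21) and base excision and strand break repair (-0.52) lay above both. The part of the number of dividing cells in the repair gene values was not tested.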

How the data were processed

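Per the labels' protocols, poly(A) RNA was made into strand-specific libraries, 36 in all (9 days, 4 each), and sequenced. The authors deposited a CPM table and a TPM table with 1 column per library. The submitters' processing notes name the build Rnor_6.0 and edgeR 3.26.8, and which aligner and counter were used is not given in the sources used here. Values in the deposited CPM table are a signal. In each column they are whole reads plus 0.5, times 1 step (100% of values under 20 reads within 0.1 read, and 100% odd multiples of 0.5 step), and the columns sum to 868992 to 1136457, so a 0-read gene is listed above 0. In 28 to 287 rows a library had 0 reads. The deposited TPM values, scaled by length by the authors, were used for levels between genes.

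Differences were tested with limma 3.58.1 (R 4.3.3; lmFit followed by eBayes with a trend) on log2(CPM + 0.5). A row needed 1 CPM or more in 4 libraries, which left 12487 rat genes and 5 construct rows. All 36 libraries entered 1 fit, with Benjamini-Hochberg adjustment within each comparison and a threshold of 0.05, so an SE for 2 days also carries the spread of the others. Fold changes on this scale understate those of low genes. In simulated counts for D9 against D0 over 12492 rows, 94% of 100 genes changed by log2 1 and 100% of 100 changed by log2 2 were recovered, and 0.0651% of unchanged genes were called. The simulation gave all genes and days the same setting of spread, changed only these genes and scaled by known library sizes. The data differ in each of these points, so the rates hold for that setting alone.

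The gene group and all gene lists were chosen with earlier results of these data known. Of the 58 genes, 3 are not reported here and enter none of the counts over the repair genes. Genes named with values are anchors of each role, the 3 highest and 3 lowest called changes of each comparison, the extremes of each role, and the largest called change of each other pathway list. Ube2t, Palb2, Usp1, Fan1, Gen1, Eme1, Mus81, Hus1, Rev3l, Mgmt and Alkbh3 were added after their values were seen.

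1 D1 column carries a letter label that no D1 sample has exactly and entered as an unnumbered D1 library. No column belonged to another series (0 of 36). The most similar pair of libraries within a day differed by a mean chi-square of 1.94 per gene, where sampling noise gives about 1, so none was counted as a copy. Alternatives were other pseudocounts, filters, scalings, the TPM table, edgeR 4.0.16 on recovered reads, fits of only the days compared, a replicate block and each library left out, and, chosen after seeing the data, a fit without the 3 libraries that stood apart. Promoters came from RefSeq (GRCr8), matched by symbol, and protein sequences were not used here.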

Additional observations from a re-analysis of the deposited data

Results flagged for a closer look

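In each of 495 groups of 4 libraries (55 genes at 9 days) the highest or lowest library was compared with the others. In 22 groups (4.44%) its gap to the nearest library, as a share of the whole range of the group, was above the 95% limit of Dixon's test. Chance alone gives about 1 in 20 groups, so their number is not above chance.

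Among the Fanconi anaemia genes, D2 replicate 4 read 8.54 CPM for Fancb (others 6.26 to 6.45), D0 replicate 3 read 18.38 for Fance (15.22 to 15.75), D9 replicate 3 read 2.57 for Fancg (1.83 to 1.91), D10 replicate 1 read 26.2 for Fancm (17.6 to 18.2) and D9 replicate 4 read 2.44 for Fancd2 (1.86 to 1.92). The D9 values of Fancd2 and Fancg remained far below their D0 values in all 4 libraries.

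Among the homologous recombination genes, D0 replicate 2 read 20.3 CPM for Rad54b (others 16.9 to 17.4) and 22.6 for Xrcc2 (25.9 to 26.1). Rad54l2 stood out in D3 replicate 1 at 22.1 (16.4 to 17.3) and in D12 replicate 2 at 16.5 (13 to 13.5). Xrcc3 stood out in D3 replicate 4 at 0.323 (0.431 to 0.453) and in D10 replicate 3 at 0.361 (0.502 to 0.53), where a library holds few reads of it.

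In the other groups, D9 replicate 2 read 149 CPM for Parp1 (others 121 to 122) and 12.3 for Rad1 (8.89 to 9.44), and it is 1 of the 3 libraries that stood apart over all genes. Parp1 was higher at D9 than at D0 in the other D9 libraries as well. D1 replicate 1 read 27.1 for Rad17 (31.5 to 31.7), D2 replicate 1 read 7.52 for Msh3 (6.34 to 6.52), D2 replicate 4 read 13.1 for Ercc8 (15.6 in each other library) and D2 replicate 2 read 29.1 for Parp2 (26.7 to 27.1). Lig3 stood out in D10 replicate 1 at 81.4 (57.6 to 61.3) and in D18 replicate 4 at 60.9 (56 to 56.7). The D1 library without a number read 37.4 for Xrcc5 (39.2 to 39.4), D9 replicate 4 read 1.41 for Rad18 (1.84 to 1.92) and D10 replicate 3 read 1.71 for Ercc6l (0.915 to 0.987).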

How the results depend on the processing

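Genes with few reads at D9 limit the size of a fold and not its direction. The rises by D9 numbered 2 with columns rescaled to 1000000 and 2 in the TPM table. The falls from D9 to D18 numbered 3, 2 and 10 with rescaled columns, the TPM table and quantile normalisation. Fits of only the days compared gave 31 called genes at D1, 0 at D10 and 19 from D11 to D12, and a pseudocount of 2 gave 4 at D10. Over all rows the fits of only the days compared called 42.2% at D1 and 0.953% at D10. The causes were not tested.

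With 1 library left out, D9 against D0 gave 8 to 11 rises and 38 to 40 falls, D18 against D9 gave 38 to 39 rises and 4 to 6 falls, and D18 against D0 gave 22 to 29 genes higher and 3 to 5 lower. The steps gave 7 to 10 called genes at D1, 35 to 40 at D2, 27 to 29 at D3, 19 to 25 at D9, 6 to 9 at D10, 33 to 37 at D11, 28 to 33 at D12 and 26 to 32 at D18, and the sum of the first 3 days of each phase 14 to 22.

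Some single-gene values changed sign. From D0 to D9, Lig4 was -0.026 in the TPM table, and Ercc6l2 -0.10 with rescaled columns and -0.15 in the TPM table. From D9 to D18, rescaled columns and the TPM table gave 0.27 and 0.30 for Rad51d, 0.18 and 0.21 for Rad52, 0.028 and 0.059 for Rad54l2, 0.27 and 0.31 for Rad9b and 0.24 and 0.26 for Ercc6. Of these the changed sign passed the threshold for Rad51d (adjusted p = 0.0324 and 0.0194) and Ercc6 (0.0412 and 0.0434). Quantile normalisation gave -0.062 for Fance, -0.026 for Lig3 and -0.068 for Ercc6l2, and a pseudocount of 0.1 gave 0.0012 for Rad9b. Without the 3 libraries that stood apart Rad9b was 0.019. With 1 library left out the values ran from -0.10 to 0.024 for Rad51d and from -0.094 to 0.11 for Rad9b. From D0 to D18, Parp2 was 0.011 with rescaled columns and from -0.097 to 0.0011 with 1 library left out, and Xrcc6 was -0.0070 with median-of-ratios size factors, -0.032 with quantile normalisation, -0.00052 with edgeR and from -0.021 to 0.031 with 1 library left out. Of the other single-gene values, 1424 of those under another setting and 1037 of those with 1 library left out kept direction and side of the threshold, 27 and 53 lost their call, and 45 and 4 gained one.

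Libraries with the same replicate number deviated together little: over 136 pairs between days the median correlation of their deviations was 0.013 (range -0.32 to 0.40, 21 over 0.1), against -0.0027 over 408 pairs with other numbers (38 over 0.1). Not every pair was over 0.1, and the main fit did not pair the libraries. That rule cannot decide the question, since weakly paired libraries would also fail it. Of 35 libraries 18 correlated best with their own number, a hint of pairing from the data. Whether the numbers pair the libraries was left unsettled. With the replicate number as a block, on the libraries whose columns carry one, 40 genes fell and 10 rose by D9, 39 rose and 6 fell by D18, and 33 were higher and 5 lower at D18 than at D0. The block added D18 against D0 calls for Fanca (adjusted p = 0.0456), Fanci (0.0328) and Rad54l2 (0.0419) and ended that of Rad18 (0.0503), and it gave 8 called genes at D1.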
